A study of Mus musculus with 24 samples.

Results

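The comparison set 4 aortas from mice given angiotensin II (Ang II) against 4 aortas from sham-treated mice, all taken 4 months after the infusion. These are 8 of the 24 libraries of the series, chosen by their column names. Of 37606 genes in the deposited count table, 16127 had enough reads in these 8 libraries to be tested. All mice were labelled as wild type (WT). Ang II or, for the sham group, vehicle was given under the skin for 2 weeks from an osmotic minipump, a small implanted device that releases its content at a steady rate. The other 16 libraries came from aortas 2 and 6 months after the same treatments, 4 per treatment and time. RNA was taken from whole aortic homogenates, so every cell type of the dissected vessel and of tissue attached to it was present. Strain, age and sex are not given in the labels used here. The labels also do not say whether replicates were separate animals, so p-values measure the spread between these samples only, which may be technical.

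Ang II is a hormone that narrows arteries and raises blood pressure, acting through its receptor Agtr1a. The aortic wall holds smooth muscle, endothelium and fibroblasts, and its outer layer adjoins perivascular fat, which in the mouse thorax is of the brown type, rich in mitochondria and in the uncoupling protein Ucp1. Macrophages live in the outer layer and are known to gather there in Ang II hypertension. They take up dying cells and lipids and release complement proteins and proteases.

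Total counts, in units of 1000000 reads, were 19.16 to 21.25 in the Ang II libraries and 19.98 to 24.90 in the sham libraries, and mitochondrial transcripts took 10.52% to 12.53% and 10.07% to 16.32% of them. Levels are given as CPM, reads per 1000000 counts after TMM scaling. The smooth muscle genes Acta2 and Myh11 were present in every library, at 132 to 364 and 68.7 to 183 CPM in the Ang II libraries and at 258 to 1252 and 129.9 to 625 CPM in the sham libraries. Tagln, another smooth muscle marker, was at 1.28 to 2.60 CPM in Ang II and 1.30 to 5.54 CPM in sham libraries. How reads of overlapping genes were counted is not given in the sources used here, so the level of Tagln is uncertain. The endothelial gene Cdh5 lay at 145 to 182 CPM in Ang II and 161 to 224 CPM in sham libraries. Transcripts of fat were also present throughout: Adipoq, the adipocyte hormone adiponectin, lay at 1649 to 1935 CPM in Ang II and 1577 to 1673 CPM in sham libraries. Airway epithelium transcripts summed to 115, 7357, 492 and 4755 CPM in the 4 Ang II libraries, by replicate number, and to 308, 1845, 153 and 58.5 CPM in the sham libraries. Skeletal muscle transcripts summed to 441 to 4718 CPM in Ang II and 314 to 13604 CPM in sham libraries.

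Sham replicate 4 stood apart from the other sham libraries. Acta2 was at 1252 CPM there and at 258 to 280.1 CPM in sham replicates 1 to 3. Eln, the elastin gene, was at 389 CPM there and at 62.2 to 72.5 CPM in the other sham libraries. Fasn, the fatty acid synthase, was at 12351 CPM there against 1741 to 2325 CPM, and Ucp1 at 515 CPM against 2289 to 3075 CPM. Its part in the results was not tested beyond leaving it out, and values without it are given below. It was singled out after its values were seen, so fits without it are no separate support for any result.

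By edgeR's quasi-likelihood test 114 of 16127 genes passed an adjusted p of 0.05 (0.707%), of which 23 were higher (0.143%) and 91 lower (0.564%) in Ang II aortas. The genes that were higher were led by macrophage transcripts. The genes that were lower were led by enzymes of glycogen, pyruvate, lipid and mitochondrial metabolism. The rises were few and large, with a median log2 fold change of 0.82, and the falls were many and small, with a median of -0.56. Over all genes tested the median was 0.0439, with 9192 genes above 0 (57.0%) and 6935 below 0. Only 16 called genes changed by at least 1 on the log2 scale, 9 higher and 7 lower. For all 114 the 4 Ang II libraries lay beyond the 4 sham libraries; among all genes tested the groups did not overlap for 638 higher (3.96%) and 999 lower genes (6.19%). At an unadjusted p under 0.05 there were 1066 higher (6.61%) and 1436 lower genes (8.90%).

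The number of calls changed when single libraries were left out, and the cause was not tested. edgeR called 1 gene without Ang II replicate 1 and 0 without Ang II replicates 2, 3 or 4. It called 0 without sham replicates 1 or 2, 3 without sham replicate 3, and 674 without sham replicate 4. The smallest adjusted p in the fits with 0 calls lay between 0.0624 and 0.0912, and 1841 to 2619 genes had an unadjusted p under 0.05 there. DESeq2 called 993 genes (1.62% of genes higher and 4.54% lower) and limma voom with library quality weights 602. All 114 genes kept their sign in each of the 17 other fits, and all 114 had an unadjusted p under 0.05 in each fit that left out a library. These genes were chosen in the same libraries, with groups that did not overlap, so both outcomes were largely set beforehand. In the edgeR fits of 16 and of 24 libraries, 110 and 107 of them had an unadjusted p under 0.05. Below, a gene said to pass, rise or fall did so by edgeR with all 8 libraries, and each such call is subject to these counts. Limma voom called 0.986% of genes higher and 2.75% lower, and edgeR without sham replicate 4 called 0.746% higher and 3.34% lower; counts by these fits stand beside the lists. The authors' deposited table listed 1028 genes below an adjusted p of 0.05. It gave the same sign to all 114, but it was made from the same counts of the same 8 libraries and is no independent support.

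**Figure D1:**
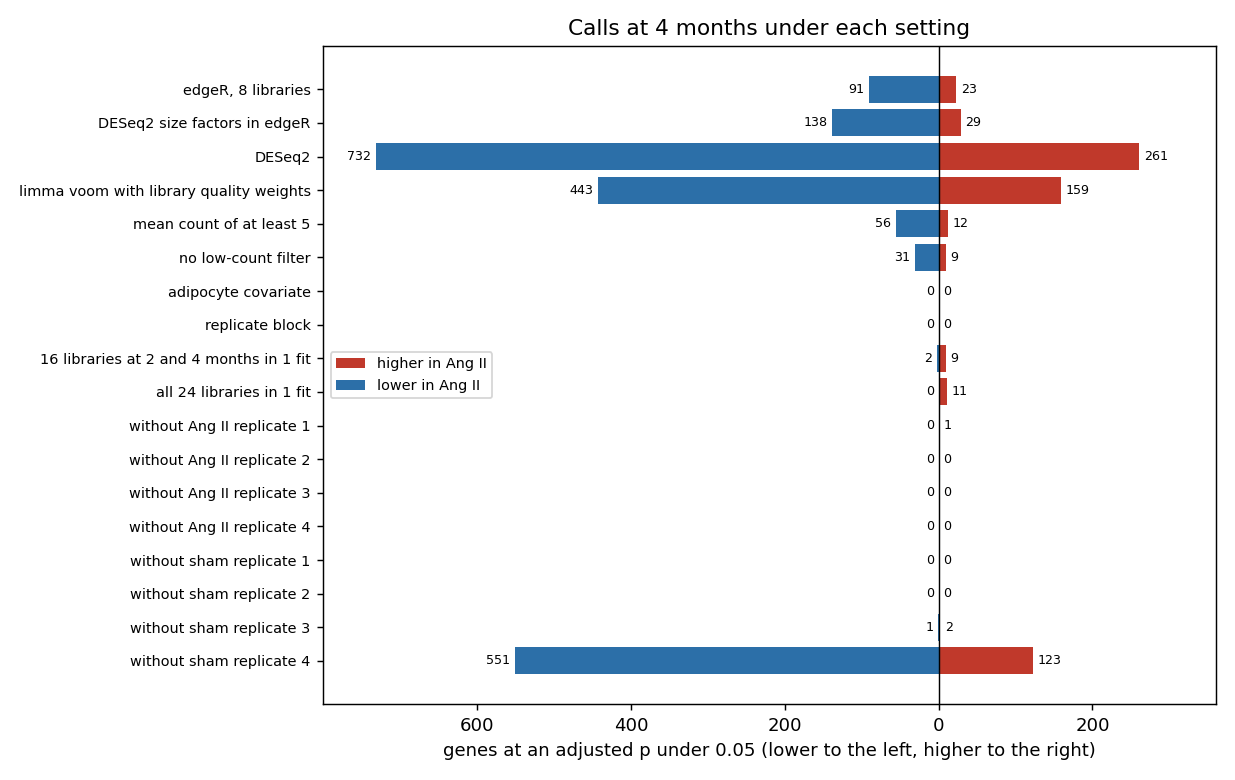
Number of genes at an adjusted p under 0.05 at 4 months under each setting, with genes higher in Ang II drawn to the right and genes lower in Ang II to the left. The 8-library fit called 23 higher and 91 lower genes, and the count without sham replicate 4 was 123 higher and 551 lower.

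Of 30 macrophage identity genes, 4 rose and none fell in Ang II aortas by edgeR with all 8 libraries, against 0.143% higher calls over all genes. Their promoters are shown with that of Trem2, the only gene that edgeR called in the list of lipid-handling macrophages. The promoters were chosen by these calls, and shared regulation was not tested. They are RefSeq sequences of build GRCm38.p6, from 250 bases before to 50 after the start, 5′ to 3′ on the gene's strand. Capitals mark the ETS core GAGGAA on either strand (TTCCTC on the other), the letters bound by PU.1 and related factors of myeloid cells. The windows were chr11:69666121-69666420 on the minus strand for Cd68, chr19:11336097-11336396 on the minus strand for Ms4a7, chr19:12460520-12460819 on the plus strand for Mpeg1, chr11:114889791-114890090 on the plus strand for Cd300a and chr17:48346151-48346450 on the plus strand for Trem2.
Cd68: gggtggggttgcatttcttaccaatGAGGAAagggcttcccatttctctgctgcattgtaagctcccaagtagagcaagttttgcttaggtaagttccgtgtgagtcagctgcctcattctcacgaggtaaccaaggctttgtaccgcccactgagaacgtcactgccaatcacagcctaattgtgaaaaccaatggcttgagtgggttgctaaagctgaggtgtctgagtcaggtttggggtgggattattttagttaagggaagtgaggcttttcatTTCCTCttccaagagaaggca
Ms4a7: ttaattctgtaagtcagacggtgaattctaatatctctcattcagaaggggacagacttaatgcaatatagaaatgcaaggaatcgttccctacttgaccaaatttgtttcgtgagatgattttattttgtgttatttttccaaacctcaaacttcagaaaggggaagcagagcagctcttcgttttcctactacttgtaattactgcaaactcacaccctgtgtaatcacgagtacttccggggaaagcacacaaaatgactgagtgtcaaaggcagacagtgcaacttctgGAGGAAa
Mpeg1: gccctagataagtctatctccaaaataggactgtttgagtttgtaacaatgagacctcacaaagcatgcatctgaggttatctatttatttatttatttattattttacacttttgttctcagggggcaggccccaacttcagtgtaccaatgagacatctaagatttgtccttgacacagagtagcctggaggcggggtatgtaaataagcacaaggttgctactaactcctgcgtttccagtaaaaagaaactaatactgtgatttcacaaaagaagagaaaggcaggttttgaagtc
Cd300a: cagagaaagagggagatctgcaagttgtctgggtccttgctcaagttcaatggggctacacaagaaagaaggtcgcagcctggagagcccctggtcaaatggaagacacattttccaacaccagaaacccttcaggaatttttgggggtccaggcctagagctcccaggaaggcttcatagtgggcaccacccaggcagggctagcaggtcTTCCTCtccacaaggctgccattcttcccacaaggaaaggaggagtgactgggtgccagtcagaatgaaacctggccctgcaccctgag
Trem2: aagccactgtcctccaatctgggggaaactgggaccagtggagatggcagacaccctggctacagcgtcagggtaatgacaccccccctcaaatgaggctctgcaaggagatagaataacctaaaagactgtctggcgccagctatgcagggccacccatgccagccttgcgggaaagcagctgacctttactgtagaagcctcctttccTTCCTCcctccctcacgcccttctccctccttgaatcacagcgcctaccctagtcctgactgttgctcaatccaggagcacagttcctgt
The core was found 2 times at Cd68, 1 time each at Ms4a7, Cd300a and Trem2, and 0 times at Mpeg1. Of 32851 promoters of the same length, 28.3% held it. The E-box CACGTG, held by 7.2% of promoters, was in none of the 5 windows. The promoter of Agpat2, a lipid gene that fell, held neither motif, and Scd1 was not matched. These matches describe letters and say nothing of binding.

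Cd68, the lysosomal glycoprotein macrosialin (chromosome 11, 69664213 to 69666153, build mm10), had 28.7, 37.8, 38.8 and 36.0 CPM in the Ang II libraries by replicate number, against 9.31, 8.91, 11.3 and 12.1 CPM in the sham libraries. It rose 3.39-fold (log2 fold change 1.76, SE 0.140), with an edgeR adjusted p = 0.0134 that was the smallest of all genes. The lowest Ang II library was above the highest sham library by more than the range within either group. Ms4a7, a tetraspan membrane protein gene of macrophages (chromosome 19, 11321039 to 11336146), had 10.1, 8.44, 8.51 and 9.28 CPM in Ang II libraries, against 2.55, 2.13, 1.45 and 2.63 CPM in sham libraries. It rose 4.12-fold (log2 fold change 2.04, SE 0.209, edgeR adjusted p = 0.0166).

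Mpeg1, which encodes the pore-forming protein perforin-2, had 80.5, 79.8, 95.1 and 84.3 CPM in Ang II libraries, against 40.7, 19.7, 27.6 and 40.4 CPM in sham libraries (log2 fold change 1.40, SE 0.218, edgeR adjusted p = 0.0401). Cd300a, an inhibitory receptor for lipids of dying cells, had 10.8, 10.3, 9.97 and 10.4 CPM in Ang II libraries, against 5.02, 3.20, 2.50 and 5.27 CPM in sham libraries (log2 fold change 1.37 with SE 0.240, edgeR adjusted p = 0.0498). The Ang II libraries were closer together than the sham libraries for both genes. Sham replicates 1 and 4 were the higher sham libraries for each.

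Of the other 26 macrophage identity genes none passed edgeR with all 8 libraries. In the whole list DESeq2 called 15 genes higher, limma voom 10 and edgeR without sham replicate 4 called 11. Of the 30 genes, 28 had log2 fold changes above 0 and the groups did not overlap for 15. The list's median was 0.76, against 0.0439 over all genes, and between 0.66 and 0.99 when 1 library was left out. Adgre1, the F4/80 antigen gene, averaged 24.3 ± 3.89 CPM in Ang II and 11.4 ± 3.27 CPM in sham aortas (SD, n = 4 each; log2 fold change 1.09, edgeR adjusted p = 0.0677). C1qc, a chain of the complement starter C1q made by macrophages, averaged 100.1 ± 13.1 CPM in Ang II and 49.7 ± 13.1 CPM in sham aortas (SD, n = 4 each; log2 fold change 1.01, edgeR adjusted p = 0.0543). Csf1r, the receptor for the macrophage growth factor, differed by 0.72 (edgeR adjusted p = 0.190). Lyve1 and Vsig4, markers of resident macrophages, were the 2 members below 0, at -0.11 and -0.98 (edgeR adjusted p = 0.883 and 0.583). Other listed markers of resident macrophages, among them Folr2, Timd4, Cd163 and Mrc1, were above 0. The summed level of the list was 1191, 1833, 1608 and 1479 CPM in the Ang II libraries, against 914, 681, 625 and 1013 CPM in the sham libraries. More macrophages and more of these RNAs per macrophage cannot be told apart in homogenates.

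Among genes of macrophages that handle lipid, Trem2, a lipid-sensing receptor, was the 1 of 19 that rose by edgeR with all 8 libraries. DESeq2 called 6 of them higher and 1 lower, limma voom 5 and 1, and edgeR without sham replicate 4 called 3 and 0. Trem2 had 8.31, 5.43, 8.06 and 5.65 CPM in Ang II libraries, against 2.42, 2.24, 1.95 and 2.75 CPM in sham libraries (2.92-fold, log2 fold change 1.55, SE 0.213, edgeR adjusted p = 0.0322). Every Ang II library was above every sham library, and Ang II replicates 1 and 3 were the highest. Lgals3, the lectin galectin-3, averaged 61.4 ± 5.67 CPM in Ang II and 27.0 ± 9.99 CPM in sham aortas (SD, n = 4 each; log2 fold change 1.18, edgeR adjusted p = 0.0688). Gpnmb, a glycoprotein of lipid-laden macrophages, had 30.9, 12.9, 16.3 and 12.4 CPM in Ang II libraries, against 8.94, 6.45, 6.59 and 9.29 CPM in sham libraries (log2 fold change 1.21, edgeR adjusted p = 0.112). The list's median was 0.39. Its members that fat cells also express, such as Fabp4 and Lpl, lay at -0.24 and -0.23.

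Of 20 Fc and inhibitory receptor genes, 2 rose by edgeR, Cd300a and Sirpa, and the median was 0.73. DESeq2 called 10 higher, limma voom 6 and edgeR without sham replicate 4 also 6. Sirpa, the receptor for the "don't eat me" signal CD47, averaged 67.7 ± 1.82 CPM in Ang II and 44.2 ± 6.64 CPM in sham aortas (SD, n = 4 each; log2 fold change 0.61, SE 0.105, edgeR adjusted p = 0.0460). Tyrobp, the signalling adaptor of Trem2, averaged 27.1 ± 1.70 CPM in Ang II and 12.7 ± 3.95 CPM in sham aortas (SD, n = 4 each; log2 fold change 1.10, edgeR adjusted p = 0.0602). Csf2rb, the shared beta chain of receptors for GM-CSF, rose by 0.53 (edgeR adjusted p = 0.0401) and was the 1 of 21 cytokine and cytokine receptor genes to pass edgeR, where DESeq2 called 3 and limma voom 2. Sirpa and Cd300a belong to families with similar sequences, and how shared reads were counted is not given in the sources used here.

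In the complement list C4b was the 1 of 18 genes that rose by edgeR with all 8 libraries, with 459.8, 514, 446 and 450.1 CPM in Ang II libraries, against 332, 261, 245 and 266 CPM in sham libraries. C4b, the central protein of the classical pathway, rose 1.70-fold (log2 fold change 0.76, SE 0.108, edgeR adjusted p = 0.0373). It has a close copy next to it in the genome, so its reads are uncertain. DESeq2 called 10 complement genes higher, limma voom 9 and edgeR without sham replicate 4 called 8. The list's median was 0.51, 16 of 18 members were above 0, and the groups did not overlap for 11. Summed complement transcripts lay at 12766 to 15923 CPM in Ang II and 8852 to 11579.9 CPM in sham libraries. C3ar1, the receptor for the fragment C3a, lay at 7.92 to 11.4 CPM in Ang II and 3.30 to 6.70 CPM in sham libraries (log2 fold change 1.08, edgeR adjusted p = 0.0794). Much of the sum was Cfd, factor D, which fat cells secrete and which averaged 11651 ± 1581 CPM in Ang II and 8232 ± 799 CPM in sham aortas (SD, n = 4 each; log2 fold change 0.50, edgeR adjusted p = 0.106).

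Of 20 matrix protease and inhibitor genes, Mmp14 was the 1 that passed edgeR with all 8 libraries, while DESeq2 and limma voom each called 2 higher and edgeR without sham replicate 4 called 3. This membrane-bound collagenase had 39.4, 43.6, 42.6 and 44.2 CPM in Ang II libraries, against 24.3, 24.6, 25.2 and 32.6 CPM in sham libraries (log2 fold change 0.67 with SE 0.108, edgeR adjusted p = 0.0443). The sham library nearest to the Ang II group was replicate 4. No chemokine or chemokine receptor passed edgeR among 24 measured (7 higher at an unadjusted p under 0.05, 3 by DESeq2 and 1 by limma voom). Ccl8, a chemokine that draws monocytes, averaged 27.4 ± 14.5 CPM in Ang II and 3.86 ± 2.21 CPM in sham aortas (SD, n = 4 each). The groups did not overlap, but the Ang II libraries ranged widely (log2 fold change 2.81, SE 0.520, edgeR adjusted p = 0.0575).

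Several immune lists lay above 0 without a member that passed edgeR, where 57.0% of all genes tested were above 0. All 19 antigen presentation genes were above 0 with a median of 0.62, and 5 had an unadjusted p under 0.05 (1 passed by DESeq2 and 1 by limma voom). All 20 interferon stimulated genes were above 0 with a median of 0.37, and 8 had an unadjusted p under 0.05 (1 passed by DESeq2 and 1 by limma voom). T and NK cell genes had a median of 0.28 that ranged from -0.19 to 0.58 as libraries were left out. B and plasma cell genes had a median of 0.57 that ranged from -0.22 to 0.96. Summed levels of the B and plasma cell genes overlapped, at 992 to 2779 CPM in Ang II and 751 to 3241 CPM in sham libraries.

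Further genes that rose stood outside the lists. Klra3, a receptor gene of natural killer cells, had the largest called log2 fold change, 2.69, at a low level. It had 0.590, 1.66, 0.956 and 1.13 CPM in Ang II libraries, against 0.137, 0.168, 0.0999 and 0.239 CPM in sham libraries (SE 0.428, edgeR adjusted p = 0.0409). It was chosen after its values were seen, and it belongs to a family of similar genes, so its reads are uncertain. Wfdc17, which encodes a secreted protein of activated macrophages (chromosome 11, 83703991 to 83706268), had 12.8, 16.3, 18.4 and 11.9 CPM in Ang II libraries, against 3.15, 3.08, 2.30 and 4.31 CPM in sham libraries. It rose 4.61-fold (log2 fold change 2.21, SE 0.228, edgeR adjusted p = 0.0166). Hpgds, the haematopoietic prostaglandin D synthase, had 7.43, 6.91, 7.60 and 7.37 CPM in Ang II libraries, against 2.10, 1.96, 1.70 and 2.95 CPM in sham libraries (log2 fold change 1.74, SE 0.198, edgeR adjusted p = 0.0167). Myo1f, a myosin of leukocytes, rose by 0.95 and Ccnd1, the cell cycle protein cyclin D1, by 0.77 (edgeR adjusted p = 0.0460 for each). Ccnd1 was at 29.4 to 46.3 CPM in Ang II and 21.2 to 22.9 CPM in sham libraries. None of 19 proliferation genes passed edgeR (0 at an unadjusted p under 0.05 in either direction, 0 by DESeq2 and 0 by limma voom). Of these, 18 were above 0, with a median of 0.93 that ranged from 0.0663 to 1.53 as libraries were left out. Their sum was 368 CPM in Ang II replicate 3 and 83.1 to 174 CPM in the other libraries.

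Other genes that rose had varied roles. Uap1l1, related to an enzyme of amino sugar metabolism, averaged 26.3 ± 1.58 CPM in Ang II and 14.6 ± 1.15 CPM in sham aortas (SD, n = 4 each; log2 fold change 0.85, edgeR adjusted p = 0.0166). Renbp, an epimerase of amino sugars, rose by 0.82, and Glb1l2, a beta-galactosidase-like gene, by 0.61 (edgeR adjusted p = 0.0322 and 0.0283). Pltp, which transfers phospholipids between lipoproteins, rose by 0.65 (edgeR adjusted p = 0.0460). The amino acid carrier Slc43a1 rose by 0.79 and the organic anion carrier Slco2b1 by 0.64 (edgeR adjusted p = 0.0460 for each). Mfng, which adds sugars to Notch receptors, rose by 0.53 (edgeR adjusted p = 0.0400).

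**Figure D2:**
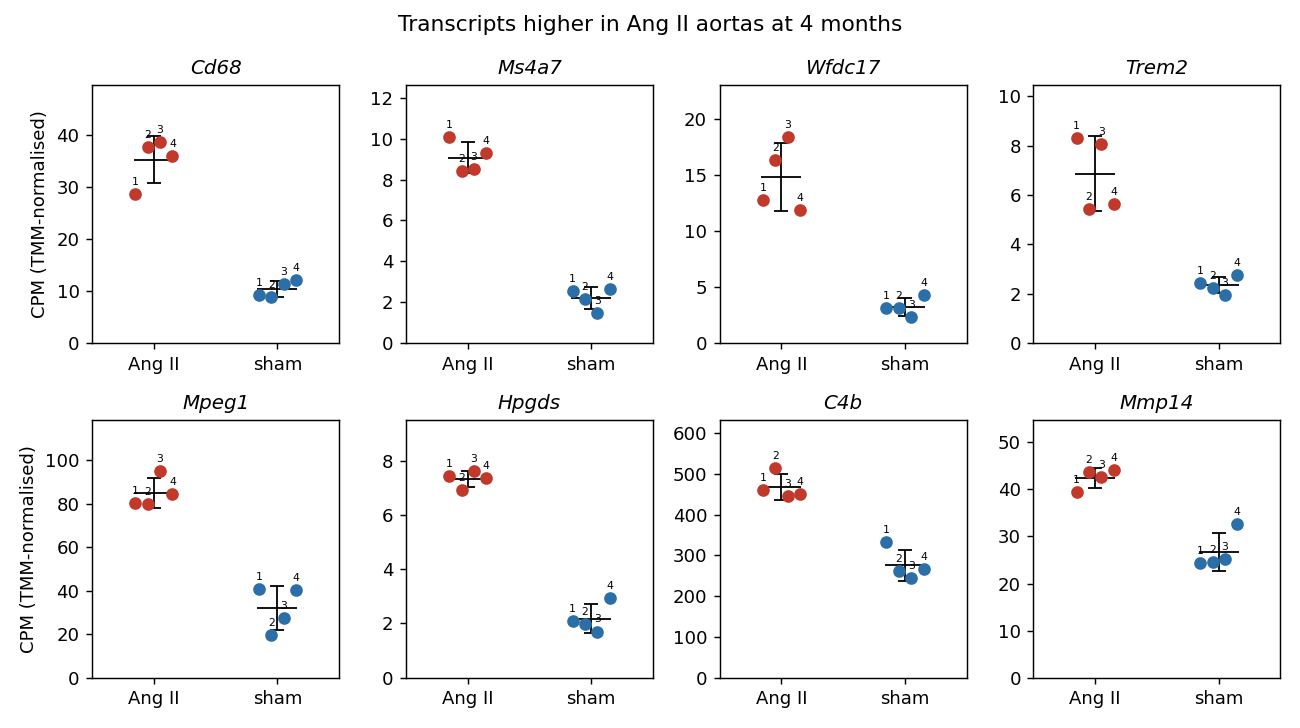
CPM of 8 genes that rose, per library (points, numbered by replicate), Ang II left and sham right, with mean and SD (black, n = 4 each). In every panel the 4 Ang II libraries lie above the 4 sham libraries, for Cd68 at 28.7 to 38.8 against 8.91 to 12.1 CPM.

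Among the transcripts that fell were those of glycogen metabolism. Of 18 genes of the list 3 fell and none rose by edgeR (9 lower by DESeq2, 3 by limma voom and 3 without sham replicate 4), against 0.564% lower calls over all genes, and the median was -0.41. Gys2, the liver-type glycogen synthase (chromosome 6, 142422613 to 142473109), had 10.3, 13.7, 16.5 and 22.7 CPM in Ang II libraries, against 74.4, 44.1, 41.9 and 38.6 CPM in sham libraries (log2 fold change -1.65, SE 0.286, edgeR adjusted p = 0.0486). Both groups were spread, with sham replicate 1 far above the other sham libraries. Ppp1r3b, the subunit that brings a phosphatase to glycogen and so activates its synthesis (chromosome 8, 35375739 to 35388139), had 40.9, 34.3, 36.1 and 45.3 CPM in Ang II libraries, against 94.2, 94.6, 82.6 and 71.4 CPM in sham libraries. It fell by 1.13 on the log2 scale (SE 0.122, edgeR adjusted p = 0.0166). Gbe1, the glycogen branching enzyme, had 109, 104, 96.6 and 105 CPM in Ang II libraries, against 173, 177, 173 and 226 CPM in sham libraries (log2 fold change -0.86 with SE 0.101, edgeR adjusted p = 0.0184). The breakdown enzyme Pygl was at -0.97 without passing (edgeR adjusted p = 0.219).

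Genes of glycolysis and pyruvate use had 10 of 26 members lower by edgeR, none higher and a median of -0.56. DESeq2 called 18 lower, limma voom 15 and edgeR without sham replicate 4 also 15. They covered glucose entry (Slc2a4), glycolysis (Pfkl), lactate formation (Ldha), pyruvate entry into mitochondria (Mpc1, Mpc2), the pyruvate dehydrogenase complex (Pdha1, Pdhb, Dlat) and the glycerol phosphate shuttle (Gpd1, Gpd2). Gpd2, the mitochondrial enzyme of that shuttle (chromosome 2, 57237635 to 57370719), averaged 194 ± 22.6 CPM in Ang II and 381 ± 40.8 CPM in sham aortas (SD, n = 4 each; log2 fold change -0.97, SE 0.113, edgeR adjusted p = 0.0177). Its cytosolic partner Gpd1 fell by 0.76 on the log2 scale (edgeR adjusted p = 0.0375). Mpc2, a subunit of the mitochondrial pyruvate carrier, had 209, 212, 216 and 189.8 CPM in Ang II libraries, against 331, 326, 319.9 and 299 CPM in sham libraries (log2 fold change -0.62 with SE 0.0712, edgeR adjusted p = 0.0167). The Mpc2 values of each group were close together. Mpc1, the other subunit, fell by 0.78 on the log2 scale, and the processed pseudogene Mpc1-ps fell by 0.80 (edgeR adjusted p = 0.0401 and 0.0465). Since that pseudogene is a near copy of Mpc1, reads of both are uncertain.

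Pdha1, Pdhb and Dlat, which encode subunits of the complex that turns pyruvate into acetyl-CoA, fell by 0.72, 0.76 and 0.68 in log2 terms (edgeR adjusted p = 0.0460, 0.0401 and 0.0322). Dlat averaged 292 ± 30.9 CPM in Ang II and 469 ± 24.2 CPM in sham aortas (SD, n = 4 each). Dld, the subunit that this complex shares with other dehydrogenases, fell by 0.62 (edgeR adjusted p = 0.0400). Slc2a4, the insulin-responsive glucose carrier GLUT4, fell by 0.57, Ldha by 0.60 and Pfkl by 0.63 (edgeR adjusted p = 0.0460, 0.0401 and 0.0401). Gapdh, often used as a reference gene, was at -0.51 without passing (edgeR adjusted p = 0.0766).

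In fatty acid and triglyceride synthesis 2 of 21 genes fell, and all 21 were below 0 with a median of -0.62 (7 lower by DESeq2, 3 by limma voom and 3 without sham replicate 4). Scd1, which makes monounsaturated fatty acids (chromosome 19, 44394451 to 44407709), had 2647, 2978, 2169 and 2351 CPM in Ang II libraries, against 4746, 7638, 4344 and 7987 CPM in sham libraries (log2 fold change -1.28, SE 0.222, edgeR adjusted p = 0.0484). Agpat2, an acyltransferase of triglyceride synthesis (chromosome 2, 26593057 to 26604417), had 281, 371, 277 and 303 CPM in Ang II libraries, against 535, 525, 438 and 477 CPM in sham libraries (log2 fold change -0.68, SE 0.116, edgeR adjusted p = 0.0460). Fasn, which builds palmitate, had 1298, 1671, 679 and 1329.6 CPM in Ang II libraries, against 2179, 2325, 1741 and 12351 CPM in sham libraries. Its groups did not overlap, but the log2 fold change of -1.90 had an SE of 0.660 and did not pass (edgeR adjusted p = 0.218). Without sham replicate 4 it was -0.75 (edgeR adjusted p = 0.197), and the list's median was -0.36. Acly and Me1, which supply acetyl-CoA and reducing power to Fasn, were likewise high in sham replicate 4, at 3098 and 2547 CPM. They lay at 402 to 447 and 364 to 378 CPM in the other sham libraries, and at 216 to 515 and 198 to 303 CPM in the Ang II libraries.

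Fatty acid oxidation genes fell in 3 of 22 members by edgeR, with a median of -0.50. DESeq2 called 15 lower and 1 higher, limma voom 13 and 0, and edgeR without sham replicate 4 called 14 and 1. Hadha, a subunit of the mitochondrial trifunctional protein of beta-oxidation, averaged 750.2 ± 48.5 CPM in Ang II and 1173 ± 93.9 CPM in sham aortas (SD, n = 4 each; log2 fold change -0.65, edgeR adjusted p = 0.0322). Cpt2, which frees acyl groups inside mitochondria, was lower by 0.62 and Etfdh, which passes their electrons to ubiquinone, by 0.63 in log2 terms (edgeR adjusted p = 0.0401 and 0.0494). The acyl-CoA thioesterase gene Acot11, outside the list, had 25.8, 24.9, 20.3 and 26.2 CPM in Ang II libraries, against 61.4, 54.8, 58.6 and 35.7 CPM in sham libraries (log2 fold change -1.12, SE 0.172, edgeR adjusted p = 0.0401).

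All 19 tricarboxylic acid cycle genes, all 34 measured oxidative phosphorylation genes and all 20 mitochondrial ribosome and translation genes were below 0, with medians of -0.52, -0.45 and -0.30. Dld, Sdha and Mdh1 passed in the first list, Ndufs1, Uqcrc2, Uqcrfs1 and Atp5a1 in the second and Gfm1 in the third. In the same order of lists DESeq2 called 18, 22 and 11 genes lower, limma voom 18, 20 and 7, and edgeR without sham replicate 4 called 17, 26 and 11. Gfm1, the elongation factor of mitochondrial translation (chromosome 3, 67430096 to 67476529), had 80.4, 82.8, 77.3 and 78.1 CPM in Ang II libraries, against 117, 122, 121 and 112 CPM in sham libraries (log2 fold change -0.57, SE 0.0582, edgeR adjusted p = 0.0166). Its groups were tight and far apart. Sdha, the flavoprotein of succinate dehydrogenase, averaged 1257 ± 73.3 CPM in Ang II and 1849 ± 192 CPM in sham aortas (SD, n = 4 each; log2 fold change -0.56, edgeR adjusted p = 0.0486). Uqcrc2, a core subunit of complex III, averaged 513 ± 28.0 CPM in Ang II and 787 ± 78.5 CPM in sham aortas (SD, n = 4 each; log2 fold change -0.62, edgeR adjusted p = 0.0400). Ndufs1 of complex I had a log2 fold change of -0.58 and Atp5a1 of the ATP synthase one of -0.51 (edgeR adjusted p = 0.0401 and 0.0498). The groups did not overlap for 16, 19 and 13 genes of the 3 lists. None of the 15 listed mitochondrial genome genes, which code for proteins and ribosomal RNAs, passed edgeR (5 lower at an unadjusted p under 0.05, 0 by DESeq2 and 0 by limma voom), and their median was -0.39. Without sham replicate 4 edgeR called 5 of them lower. Outside that list, and chosen after its values were seen, the mitochondrial transfer RNA gene mt-Tq had 0.148, 0.269, 0.182 and 0.246 CPM in Ang II libraries, against 0.821, 1.12, 0.799 and 0.718 CPM in sham libraries. It had the largest called fall, to 0.251 of the sham level, at a level near or below 1 CPM (edgeR adjusted p = 0.0401).

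In the breakdown of branched-chain amino acids 5 of 20 genes fell by edgeR (15 by DESeq2, 10 by limma voom and 9 without sham replicate 4), the groups did not overlap for 18, and the median was -0.34. Pcca, the alpha subunit of propionyl-CoA carboxylase (chromosome 14, 122534324 to 122891100), had 132, 141, 132 and 136 CPM in Ang II libraries, against 195, 203, 221 and 206 CPM in sham libraries (log2 fold change -0.61, SE 0.0652, edgeR adjusted p = 0.0166). Hibch, Hibadh and Acad8, enzymes of the valine path, fell by 0.43, 0.41 and 0.41 in log2 terms (edgeR adjusted p = 0.0400, 0.0401 and 0.0460). Dbt, the transacylase core of the branched-chain ketoacid dehydrogenase, fell by 0.41 (edgeR adjusted p = 0.0460). Slc7a5, a plasma membrane carrier for these amino acids, and Bcat2 were the 2 members above 0, at 0.48 and 0.0747 (edgeR adjusted p = 0.353 and 0.761).

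Brown fat transcripts are given beside these lists. Ucp1 had 713, 1021, 798 and 1051 CPM in Ang II libraries, against 3075, 2997, 2289 and 515 CPM in sham libraries. The groups overlapped through sham replicate 4 alone, and the log2 fold change of -1.31 did not pass (SE 0.468, edgeR adjusted p = 0.230). Without that library it was -1.64 and passed (edgeR adjusted p = 0.00656). Leaving out the only overlapping library separates the groups by construction, so this pass is no separate support. The authors' deposited DESeq2 result for all 8 libraries put Ucp1 at -1.33, with a DESeq2 adjusted p = 0.0392. The 16 measured brown adipocyte genes summed to 3747, 3651, 3443 and 3693 CPM in the Ang II libraries, against 7297, 8290.5, 6988 and 3398 CPM in the sham libraries. Their median log2 fold change was -0.63, 14 of 16 were below 0 and none passed edgeR (9 lower at an unadjusted p under 0.05). DESeq2 called 7 of them lower, where it called 4.54% of all genes lower, and edgeR without sham replicate 4 called 8, where it called 3.34%. Zic1, a transcription factor of brown fat, was at 0 to 0.0455 CPM in Ang II and 0 to 0.449 CPM in sham libraries. General adipocyte genes summed to 31310.5 to 37453 CPM in Ang II and 30338 to 34398 CPM in sham libraries, with a median of -0.12.

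The place of sham replicate 4 differed between lists. Its brown adipocyte sum lay just below the Ang II libraries. Its lipolysis and lipid droplet sum of 10504 CPM lay within their 9595 to 10532 CPM, as did its mitochondrial genome sum of 99888 CPM within their 98888 to 122513 CPM. Its oxidative phosphorylation sum of 22532 CPM lay between the 18778 to 21594 CPM of the Ang II libraries and the 26658 to 31575 CPM of the other sham libraries, nearer to the Ang II libraries. Its fatty acid oxidation sum of 12692 CPM likewise lay between 9788 to 11562 CPM in the Ang II libraries and 14432 to 17435 CPM in the other sham libraries. Tricarboxylic acid cycle genes summed to 17408 CPM in sham replicate 4, below 20312 to 24363 CPM in the other sham libraries and above 13258 to 15480.3 CPM in the Ang II libraries. Branched-chain amino acid genes summed to 4638 CPM in sham replicate 4, within the 4558 to 4703 CPM of the other sham libraries, and to 3682 to 3853 CPM in the Ang II libraries. Gbe1 and Mpc1 were highest in sham replicate 4. Without it the medians were -0.62 for the tricarboxylic acid cycle, -0.35 for branched-chain amino acids and -0.82 for brown adipocyte genes. A score used as covariate was built from the general adipocyte list, which includes the called gene Slc2a4, and not from the brown adipocyte genes. It was 9.22 to 9.34 in Ang II and 9.27 to 9.37 in sham libraries, as mean log2 CPM. With this covariate edgeR called 0 genes, with 1728 at an unadjusted p under 0.05. The tricarboxylic acid cycle median was then -0.45 and the oxidative phosphorylation median -0.36. The part of the brown fat transcripts in the metabolic results was not tested.

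Other genes that fell belonged to varied groups. Vldlr, the receptor for triglyceride-rich lipoproteins (chromosome 19, 27216484 to 27254231), had 103, 103, 101 and 107 CPM in Ang II libraries, against 161, 185, 155 and 158 CPM in sham libraries (log2 fold change -0.67, SE 0.0731, edgeR adjusted p = 0.0166). It was the 1 of 20 cholesterol synthesis and uptake genes to pass edgeR. Prdx3, the mitochondrial peroxidase, fell by 0.54 on the log2 scale (edgeR adjusted p = 0.0283), the 1 of 22 oxidant and antioxidant genes to pass edgeR with all 8 libraries (4 lower by DESeq2, 2 by limma voom). The mitochondrial carrier Slc25a35 fell by 0.76, the cAMP phosphodiesterase Pde4a by 0.77, the nerve growth factor gene Nrtn (neurturin) by 0.75 and the carbonic anhydrase Car14 by 0.75. Poln, a DNA polymerase, fell by 1.31 and the pseudokinase gene Stradb by 0.74 on the log2 scale. These 6 genes had edgeR adjusted p between 0.0291 and 0.0494. Chosen after their values were seen, the cristae and inner membrane genes Opa1, Immt and Letm1 fell by 0.52, 0.51 and 0.60 on the log2 scale, and the ubiquinone synthesis genes Coq3 and Coq9 by 0.46 and 0.57 (edgeR adjusted p from 0.0322 to 0.0400).

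**Figure D3:**
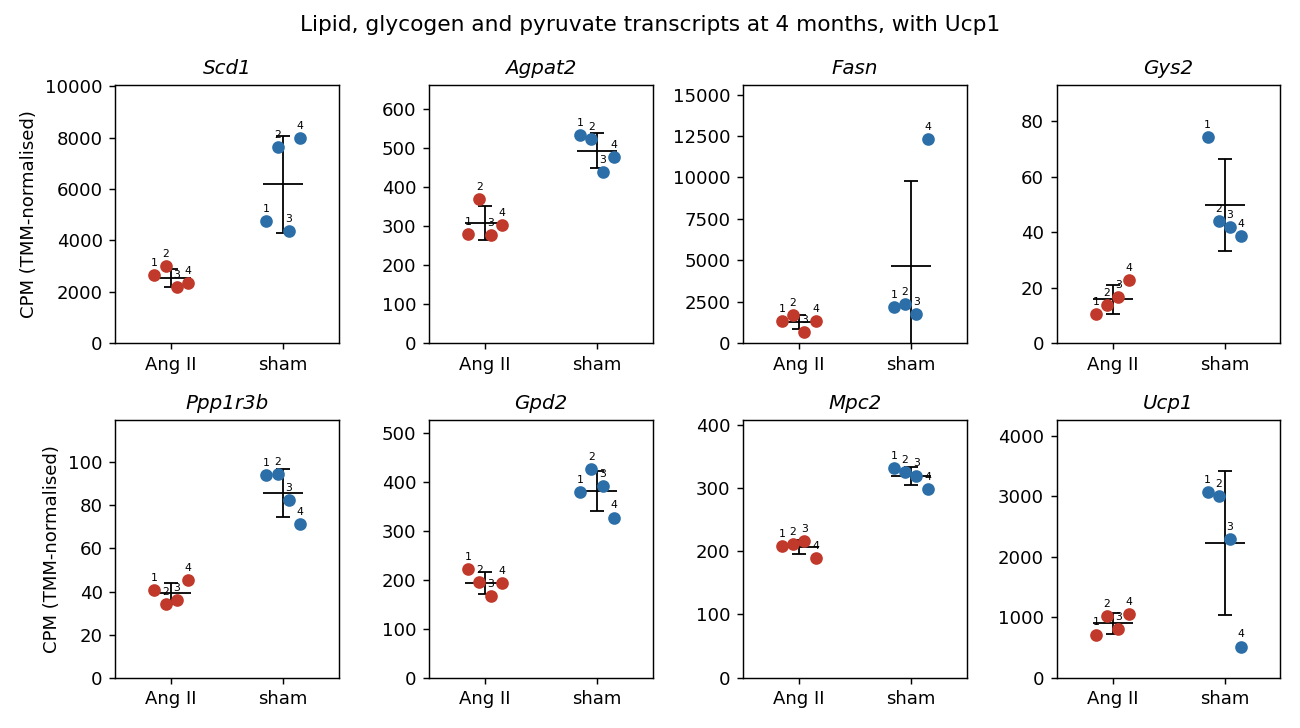
CPM of 8 metabolic genes per library (points, numbered by replicate), Ang II left and sham right, with mean and SD (black, n = 4 each; for Fasn the lower end of the sham bar lies below 0 and is not drawn). All but Ucp1 have every Ang II library below every sham library. Fasn and Ucp1 did not pass edgeR with all 8 libraries, and sham replicate 4 is at 12351 and 515 CPM for these.

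**Figure D4:**
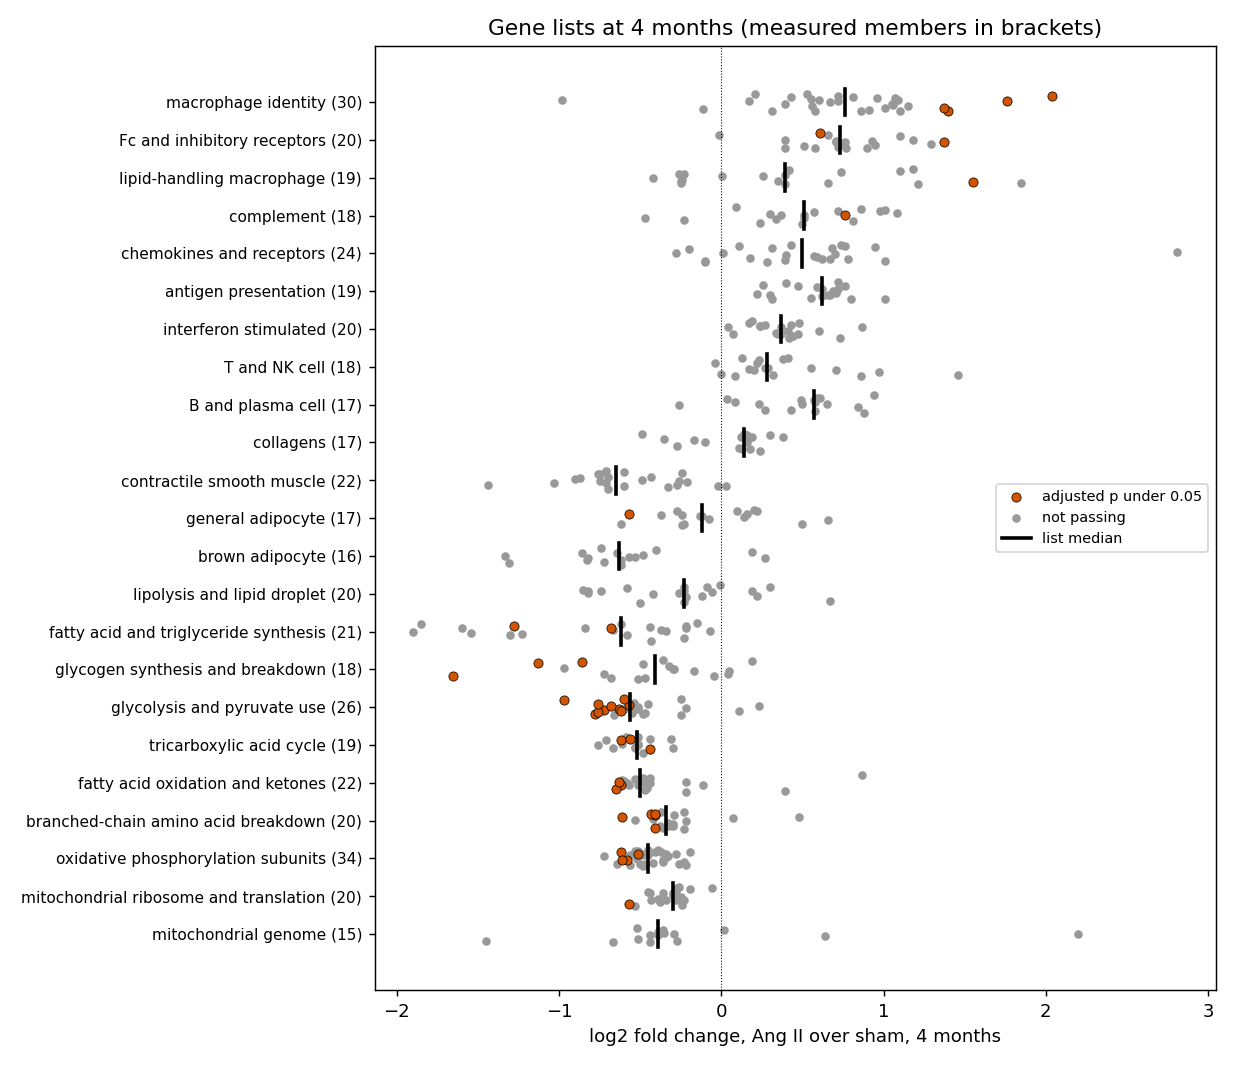
Log2 fold change of Ang II over sham at 4 months for each measured gene of 23 lists, with genes at an adjusted p under 0.05 in orange and the list median as a bar. Macrophage identity has a median of 0.76, and the tricarboxylic acid cycle of -0.52 with all 19 genes below 0.

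Genes of the vessel wall did not pass edgeR in the collagen and contractile lists. Collagen genes had a median of 0.14 and none of 17 passed edgeR (1 lower at an unadjusted p under 0.05, 0 by DESeq2 and 0 by limma voom). Col1a1 averaged 169 ± 29.8 CPM in Ang II and 149 ± 75.9 CPM in sham aortas, and Col3a1 293 ± 42.7 CPM and 238 ± 92.9 CPM (SD, n = 4 each; log2 fold changes 0.19 and 0.30, edgeR adjusted p = 0.781 and 0.576). Eln had 138, 121, 54.0 and 77.4 CPM in Ang II libraries, against 62.2, 72.5, 62.4 and 389 CPM in sham libraries. Its log2 fold change was -0.59 with all libraries and 0.56 without sham replicate 4 (edgeR adjusted p = 0.672 and 0.369), so its direction rested on that library. Acta2 was at -1.03 (edgeR adjusted p = 0.422) and at -0.10 without sham replicate 4. The contractile smooth muscle list had a median of -0.65, and of -0.0519 without that library, with no gene passing edgeR in either fit (3 lower at an unadjusted p under 0.05, 0 by DESeq2 and 0 by limma voom).

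The TAM receptors Axl, Mertk and Tyro3, which help macrophages clear dying cells, did not pass with all 8 libraries. Axl had 79.0, 97.1, 66.4 and 91.8 CPM in Ang II libraries, against 67.5, 63.8, 54.3 and 123 CPM in sham libraries (log2 fold change 0.11, SE 0.252, edgeR adjusted p = 0.834). Mertk had 39.2, 38.9, 27.0 and 32.3 CPM in Ang II libraries, against 22.5, 20.4, 17.9 and 33.2 CPM in sham libraries (log2 fold change 0.55 with SE 0.205, edgeR adjusted p = 0.248). The ligand gene Gas6 lay at 140.5 to 161 CPM in Ang II and 99.8 to 205 CPM in sham libraries (log2 fold change 0.16, edgeR adjusted p = 0.721). In all 3 genes sham replicate 4 was the highest sham library. Without it Mertk and Gas6 passed, at 0.75 and 0.43 (edgeR adjusted p = 0.0378 and 0.0291), and Axl did not, at 0.43 (edgeR adjusted p = 0.167). Leaving out the highest sham library raises each difference, so these passes are no separate support. Pros1, the other ligand gene, had 45.0, 54.1, 41.6 and 46.7 CPM in Ang II libraries, against 33.3, 39.8, 32.3 and 40.6 CPM in sham libraries, with no overlap (log2 fold change 0.36, edgeR adjusted p = 0.174). Tyro3 was at 0.69 and Agtr1a, the Ang II receptor gene, at 0.0498 (edgeR adjusted p = 0.378 and 0.945).

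Values from the same fits at 2 and 6 months were set beside the 4-month differences. The higher genes were mostly also above 0 at 2 months, and the lower genes mostly had values near 0 there. Of the 23 higher genes 22 were tested at 2 months, 20 were above 0 with a median of 0.57, and 7 passed, namely Cd300a, Cd68, Heph, Hpgds, Ms4a7, Trem2 and Wfdc17. Over all genes 1.81% were called at 2 months and 0.371% were called higher. Wfdc17 was at 1.82 and Cd68 at 1.51 there (edgeR adjusted p = 0.00538 and 0.0280). C4b was at 0.10 at 2 months (edgeR adjusted p = 0.932) and Ccnd1 at -0.27 (edgeR adjusted p = 0.870). Of the 91 lower genes 90 were tested at 2 months, 61 were below 0 with a median of -0.0675, and 0 passed. Over all genes at 2 months 1.44% were called lower and 48.3% were below 0, with a median of 0.00896. Gys2 was at -1.43 and Acot11 at -0.96 at 2 months (edgeR adjusted p = 0.477 and 0.226), Pcca at 0.0413 and Scd1 at 0.32 (edgeR adjusted p = 0.963 and 0.883).

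A difference between the Ang II effects at 4 and at 2 months was tested in the 16 libraries of both times. edgeR called 0 of 17153 genes (0%) for it, while 1813 had an unadjusted p under 0.05 (10.6%) and limma voom called 467. Without sham replicate 4 of the 4-month group edgeR called 128. Scd1 differed by -1.62 between the times (SE 0.473, edgeR adjusted p = 0.275) and C4b by 0.66 (SE 0.217, edgeR adjusted p = 0.318). For the lower genes, a difference from 2 months is thus not shown by this test.

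At 6 months edgeR called 0 of 19343 genes (0%), with 976 at an unadjusted p under 0.05. The 6-month libraries had 31.75% to 59.31% mitochondrial counts, so time and that share cannot be told apart. Of the 23 higher genes 22 were tested at 6 months and 2 were above 0, with a median of -0.23. All 91 lower genes were tested at 6 months and 31 were below 0, with a median of 0.0467. Over all genes at 6 months 54.8% were below 0, with a median of -0.0252. The effect at 4 months minus that at 6 months was called for 5 of 19571 genes (0.0255%; 14 by limma voom). It was 2.31 for Ms4a7 (SE 0.315, edgeR adjusted p = 0.0253), 2.05 for Cd68 (SE 0.300, edgeR adjusted p = 0.0295) and 1.06 for Mmp14 (SE 0.140, edgeR adjusted p = 0.0253). Uap1l1 differed by 1.08 (edgeR adjusted p = 0.0295) and Fam83a, a signalling adaptor gene, by -1.57 (edgeR adjusted p = 0.0406). Cd68 averaged 6.71 ± 2.30 CPM in Ang II and 8.52 ± 1.63 CPM in sham aortas at 6 months (SD, n = 4 each). Leaving out any 4-month library except sham replicate 4 brought the count to 0, and leaving that one out brought it to 16.

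**Figure D5:**
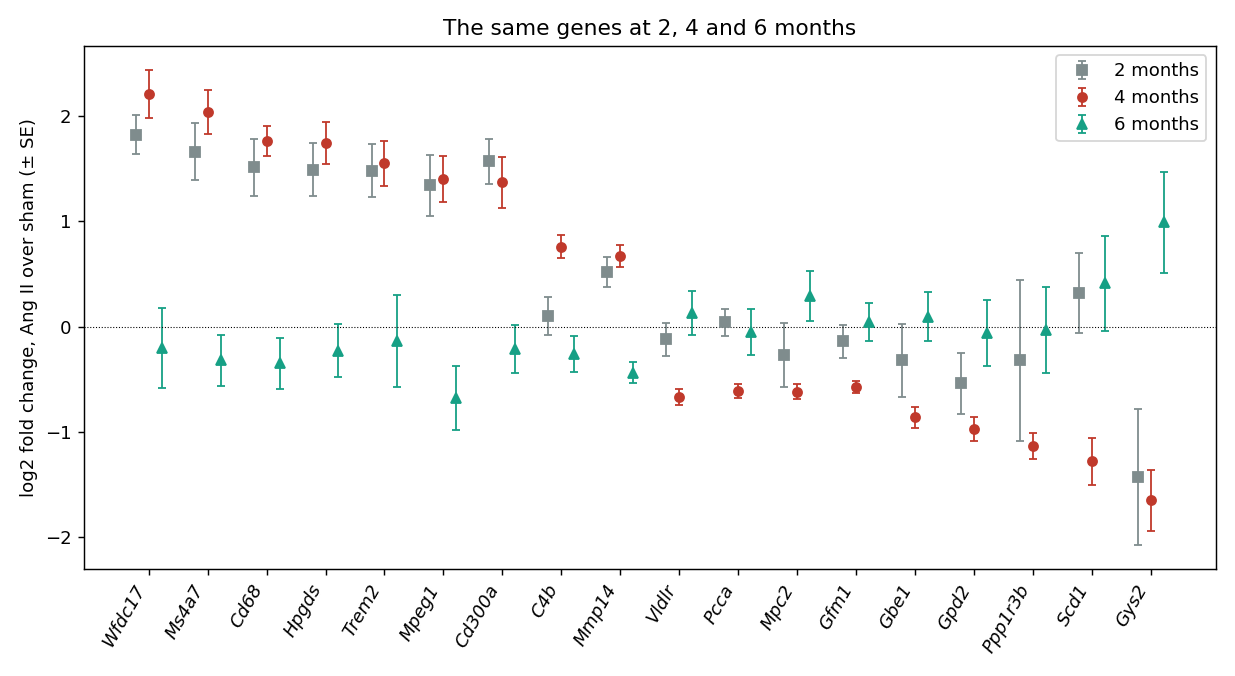
Log2 fold change of Ang II over sham (points, with SE) at 2, 4 and 6 months for 18 genes called at 4 months. Wfdc17 is at 1.82, 2.21 and -0.20, while Pcca is at 0.0413, -0.61 and -0.0470.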

How the data were processed

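RNA of 24 aortic homogenates was sequenced. The authors deposited whole-number read counts for 37606 genes, and for each time a table with a log2 fold change and a p-value per gene. Build mm10 and the tools STAR, featureCounts, DESeq2, cutadapt and FastQC are listed per the submitters' processing notes. Their versions, the strand setting and how shared reads were handled are not stated there. Per the labels, libraries were made with an mRNA kit.

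The 8 libraries at 4 months were fitted with edgeR 4.0.16 in R 4.3.3. The filterByExpr filter (minimum count 10, minimum total 15) chose the genes, which were scaled by TMM and tested with the quasi-likelihood F test and Benjamini-Hochberg adjustment at 0.05 over all genes kept. The differences of effects between times were fitted over 16 libraries. Each SE was obtained by dividing the absolute log2 fold change by the root of the F statistic. Alternatives were DESeq2 1.42.0, its size factors in edgeR, limma 3.58.1 voom, other count filters, an adipocyte covariate, a replicate block, larger fits and leaving out each library. The code was tested on simulated data.

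Members and the 49 gene lists were chosen with earlier results of these data known. Named genes were, among called genes with a symbol that is not a predicted gene's and a mean CPM of at least 1, the 20 largest rises and 20 largest falls, up to 6 called members per list by p, the 5 smallest p of each difference between times, and in every case Cd68, Trem2, Fasn, Adipoq, Ucp1, Acta2, Eln, Col1a1, Col3a1, Agtr1a and the TAM receptors with their ligands; the text gives part of these. List members with values that did not pass are given as examples. Of the listed genes, 9 were not found in the table. Promoter sequences and motifs came from RefSeq tables of build GRCm38.p6.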

Additional observations from a re-analysis of the deposited data

Results flagged for a closer look

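In 20 of 256 groups of 4 libraries at 4 months 1 library lay far from the other 3; chance marks about 1 in 20 groups. Sham replicate 4 was far above the other sham libraries for Acta2 (1252 CPM, others 258 to 280.1), Eln (389, others 62.2 to 72.5), Fasn (12351, others 1741 to 2325), Gbe1 (226, others 173 to 177), Mmp14 (32.6, others 24.3 to 25.2), Mpc1-ps (34.6, others 23.4 to 24.8) and the summed TAM genes (409, others 219 to 251), and far below for the summed lipid-handling macrophage genes (19180.3, others 23334 to 24031). Sham replicate 2 was far above for Acad8 (80.2 CPM), summed skeletal muscle (13604) and summed airway epithelium genes (1845), and far below for Glb1l2 (85.4) and summed T and NK cell genes (51.5). Sham replicate 1 was far above for Gys2 (74.4 CPM) and sham replicate 3 for Hibadh (491 CPM).

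Among Ang II libraries, replicate 2 was far above the others for Dbt (127 CPM) and summed branched-chain amino acid breakdown genes (3853) and far below for summed heat shock and ER stress genes (3337). Replicate 4 was far below for Mdh1 (559.9 CPM) and replicate 1 for summed thymocyte genes (119).

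The Ang II effect at 4 months differed from that at 6 months, by a test of the difference in edgeR, for Ms4a7 (2.31 on the log2 scale), Cd68 (2.05), Uap1l1 (1.08), Mmp14 (1.06) and Fam83a (-1.57). Depth and mitochondrial share also differed between the libraries of these times, so time cannot be told apart from them.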

How the results depend on the processing

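All 114 genes called at 4 months kept their sign in all 17 other fits, which choosing them in the same libraries made likely beforehand. The number of calls did not hold (114 in all, 23 higher and 91 lower). It was 993 with DESeq2 (261 and 732), 602 with limma voom (159 and 443), 68 at a mean count of at least 5 (12 and 56), 40 with no low-count filter (9 and 31), 11 in 1 fit of 16 libraries (9 and 2), 11 in 1 fit of 24 libraries (11 and 0) and 16 when a log2 change of 1 or more in size was required (9 and 7). With DESeq2 size factors in edgeR it was 167, with 138 lower. It was 0 with the adipocyte covariate (0 and 0; smallest adjusted p 0.0882). Without single libraries it lay between 0 and 674 (0 to 123 higher, 0 to 551 lower), with 674 without sham replicate 4, 3 without sham replicate 3, 1 without Ang II replicate 1 and 0 without any other; the cause was not tested.

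Same-numbered Ang II and sham libraries had correlations of deviations of -0.26, 0.318, -0.173 and -0.19. Libraries with different numbers had correlations of -0.209 to 0.321. So few values cannot decide whether the numbers pair the samples. With the replicate block edgeR called 0 genes at 4 months (0 higher, 0 lower; smallest adjusted p 0.226, 1947 genes at an unadjusted p under 0.05), 0 for the difference from 2 months and 0 for that from 6 months.

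The difference from 2 months (0 genes) was called for 1 gene with size factors and 467 with limma voom, and for 0 to 128 without single 4-month libraries, 128 without sham replicate 4. The difference from 6 months (5 genes) was called for 14 with limma voom and for 0 to 16 without single 4-month libraries.

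Of the genes named, the sign reversed for some that had not passed. Agtr1a (-0.17 to 0.30 as libraries were left out) was at -0.0865 with the adipocyte covariate, -0.0399 with limma voom and -0.17, -0.13 and -0.0835 without Ang II replicate 1, sham replicate 2 and sham replicate 4. Axl (-0.0225 to 0.43) was at -0.12 with the covariate and -0.0225 without sham replicate 3, and Col1a1 at -0.0368 with the covariate. Eln (-0.84 to 0.56) was at 0.24 with limma voom and 0.56 without sham replicate 4. Ramp1, at -0.0591 (-0.18 to 0.0607), was at 0.0868 with limma voom and 0.0607 without Ang II replicate 3. The list medians under left-out libraries, the size factors and the adipocyte covariate were chosen after seeing the data. Depth was similar in the 8 libraries, at 19.16 to 24.90 in units of 1000000 reads.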

Other observations

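Further lists are given here by their values. Of 20 lipolysis and lipid droplet genes none passed edgeR (1 higher and 9 lower at an unadjusted p under 0.05, 8 lower by DESeq2) and the median was -0.23. Plin5, the droplet protein that ties droplets to mitochondria, was at -0.82 and the lipase gene Pnpla2 at -0.26 (edgeR adjusted p = 0.106 and 0.232). Fibroblast genes summed to 4982, 4959.9, 4791 and 4889.5 CPM in the Ang II libraries, against 3521, 3789.7, 3165 and 4497 CPM in the sham libraries, without overlap. Their median was 0.23 and none of 16 passed edgeR (3 higher at an unadjusted p under 0.05, 2 by DESeq2 and 2 by limma voom). Circadian clock genes had 18 of 19 members below 0 with a median of -0.13, and none passed edgeR (3 lower at an unadjusted p under 0.05, 1 by DESeq2 and 1 by limma voom).

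Skeletal muscle genes had a median of -0.85, of -1.23 without sham replicate 4 and of 1.37 with the adipocyte covariate. Airway epithelium genes had a median of 2.03 without a member that passed edgeR (3 higher at an unadjusted p under 0.05, 0 by DESeq2 and 0 by limma voom). Scgb1a1, the club cell secretory protein, had 0.787, 1733, 96.4 and 1207 CPM in the Ang II libraries, against 75.7, 591, 43.6 and 2.71 CPM in the sham libraries.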
